A study of Rattus norvegicus with 12 samples.

Results

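The 9 genes described here encode liver enzymes that break down amino acids: Tat, Hpd, Tdo2, Gpt, Got1, Oat, Hal, Sds and Gls2. They were chosen by name and found among 35541 genes and 41012 probes of a rat 1-colour Agilent array by the gene name, an older synonym or the description in the array files. All 9 genes were found, with 12 probes, of which 11 passed the filter on low signal. RNA came from primary hepatocytes of Sprague-Dawley rats aged 11 weeks, isolated by collagenase perfusion, plated in serum and then kept without it. The 4 groups of 3 arrays were female hepatocytes with dexamethasone, female hepatocytes with vehicle, male hepatocytes with dexamethasone and male hepatocytes with vehicle. Dexamethasone, a synthetic glucocorticoid, was given for 6 h at 100 nM (the labels write nm), and the vehicle was 0.01% ethanol. All groups were of the Sprague-Dawley strain, and the labels name no genetic change. Sex was taken from the sample titles, because a separate label reads male for all 12 samples. The labels do not say whether replicates came from separate animals or cultures, so the spread behind the p-values is that of these samples and may be technical.

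The liver is the main site of amino acid breakdown. Aminotransferases, ammonia-lyases, a dehydratase and a glutaminase remove the nitrogen, which enters the urea cycle, and the carbon skeletons feed glucose production, above all in periportal hepatocytes. Tat and Tdo2 are textbook glucocorticoid-induced genes of rat liver, with receptor binding known to occur far from the start of the gene as well as near it. Glucocorticoids released in fasting are known to raise the capacity for this breakdown together with gluconeogenesis.

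The probes are 60 bases long, and those printed here show which stretch of each transcript was read. The Tat probe lies on rn3 chromosome 19 at 39868729 to 39868788, and the Tdo2 probe on chromosome 2 at 173548691 to 173548750. The Hpd probe lies on chromosome 12 at 34419553 to 34419612, and the Gpt probe, named Gpt1 in the files, on chromosome 7 at 114780876 to 114780935. The Got1 probe spans 2209 bases of chromosome 1, 247459063 to 247461271, and the second Oat probe spans 2325 bases of it, 192184104 to 192186428, so both cross at least 1 splice junction. The Sds probe lies on chromosome 12 at 37147918 to 37147977. No annotation of build rn3 was used here, so exon and UTR positions are not given. The sequences are as deposited, all in lower case. For Oat the sequence is that of the second, dimmer probe, whereas the Oat levels are those of the brighter probe unless stated.
Tat: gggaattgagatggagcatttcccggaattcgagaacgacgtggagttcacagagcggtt
Tdo2: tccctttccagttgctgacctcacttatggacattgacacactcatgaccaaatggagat
Hpd: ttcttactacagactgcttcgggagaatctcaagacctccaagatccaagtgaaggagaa
Gpt: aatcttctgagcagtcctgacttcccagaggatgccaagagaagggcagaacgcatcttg
Got1: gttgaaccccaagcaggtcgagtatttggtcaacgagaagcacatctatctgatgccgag
Oat: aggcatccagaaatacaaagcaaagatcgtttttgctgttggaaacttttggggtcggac
Sds: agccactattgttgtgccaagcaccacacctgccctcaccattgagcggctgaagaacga

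The other probes are described by position. The 2 Hal probes lie apart on chromosome 7, at 30571338 to 30571397 and 30541155 to 30541213. The brighter Oat probe lies on chromosome 1 at 192176738 to 192176797, and the Gls2 probe on chromosome 7 at 1495228 to 1495287. A further probe, described as Sds in the files, lies on chromosome 12 at 37144975 to 37145034 and was well above background on 1 of 12 arrays. It failed the filter and was not tested. Each gene is given by its kept probe of highest mean signal, and levels of different probes are not compared.

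Levels are log2 processed signals relative to the 75th percentile of the same array, so that 0 marks that percentile. The share of probes well above background differed by slide. All male vehicle arrays were on slide 1 and were its 3 lowest, so slide and group cannot be told apart here. Between 45.8% and 66.5% of probes were well above background on the 4 arrays of slide 1, where male vehicle (3 arrays) and male dexamethasone (replicate 1) were hybridised, against 72.4% to 80.4% on the other 8. On slide 2 were replicates 2 and 3 of male dexamethasone and replicates 1 and 2 of female vehicle. On slide 3 were female dexamethasone (3 arrays) and replicate 3 of female vehicle. A fit with the slide as a block therefore rests, for the male response, on 1 dexamethasone array against the 3 vehicle arrays of slide 1, and, for the female response, on the 3 dexamethasone arrays against 1 vehicle array of slide 3. No slide held both sexes in the same treatment. All 8 hepatocyte markers looked at (Alb, Apoa1, Apob, Ttr, Tf, Fgb, Serpina1 and Hnf4a) were well above background on all 12 arrays. The 10 measured Kupffer cell markers were so too, with a summed linear level relative to the 75th percentile of 50.2 to 128 over the arrays, beside 1028 to 2160 for the hepatocyte markers.

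In females, dexamethasone raised 2 of the 9 genes, Tat and Tdo2, and lowered 0. In males 3 were called higher and 0 lower: the same pair and Gpt, whose call was lost under 13 of 20 alternatives and rests on a probe above background on 1 of 3 male vehicle arrays. Calls are an adjusted p at or under 0.05 in limma over all kept probes, and 2.8% of those were called higher and 1.01% lower in females, against 5.36% higher and 4.85% lower in males. At an unadjusted p under 0.05, 2 genes passed in females and 3 in males, and these were the genes called, while 16.7% of all kept probes passed in females and 27% in males. The median difference of the 9 genes was 0.40 log2 units in females and 0.49 in males, beside -0.02 and -0.06 over all kept probes. The lowest of the 9 differences was -0.37 in females and -0.57 in males, and 7 and 6 were above 0. With bulk RNA, fewer cells expressing a gene and less of its RNA per cell cannot be told apart.

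**Figure D1:**
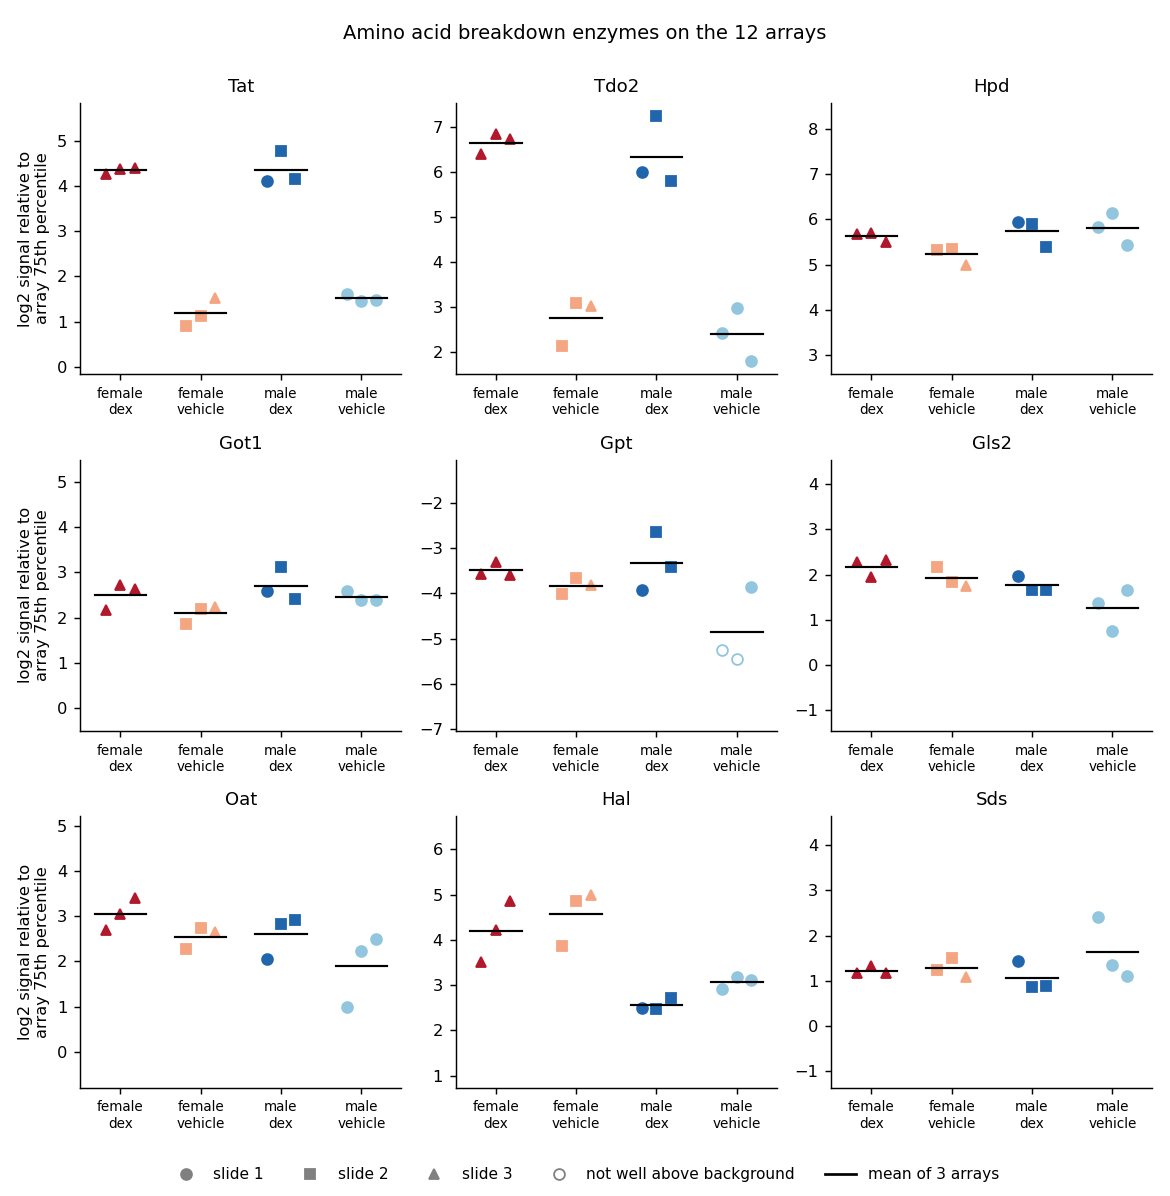
Log2 signal relative to the array's 75th percentile (vertical axis, each panel with its own zero but a span of about 6 units) of the 9 enzymes on each of the 12 arrays, by group, with bars at the means of 3 arrays. Point shape gives the slide, and open points mark probes not well above background. The dexamethasone arrays stand apart above the vehicle arrays in the Tat and Tdo2 panels, and in the Hal panel the female arrays stand above the male arrays.

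Tat, tyrosine aminotransferase, which starts the breakdown of tyrosine, rose in both sexes by about 3 log2 units. In females its level was 4.27, 4.37 and 4.40 on the dexamethasone arrays, against 0.90, 1.13 and 1.52 on the vehicle arrays. All female dexamethasone arrays lay above all female vehicle arrays. In males it was 4.11, 4.77 and 4.15 with dexamethasone, against 1.61, 1.46 and 1.48 with vehicle, again without overlap. The difference was 3.16 ± 0.21 log2 units in females (SE, an 8.95-fold rise, limma adjusted p = 5.72e-05, 3 arrays a group) and 2.82 ± 0.21 in males (7.08-fold, adjusted p = 9.17e-05). Within slides it was 2.82 in females (adjusted p = 0.00619) and 2.59 in males (0.00928).

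The Tat responses of the sexes were not told apart: the female response exceeded the male response by 0.34 log2 units, with a 95% interval from -0.32 to 0.99 (adjusted p = 0.743). Its levels with dexamethasone averaged 4.35 ± 0.07 in females and 4.34 ± 0.37 in males (SD, n = 3 each). With vehicle they averaged 1.18 ± 0.32 in females and 1.52 ± 0.08 in males, a difference of -0.34 whose interval runs from -0.80 to 0.13.

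Tdo2, tryptophan 2,3-dioxygenase, which opens the ring of tryptophan at the entry to the kynurenine pathway, had the largest rise of the 9. Its level in females was 6.40, 6.84 and 6.73 with dexamethasone, against 2.15, 3.10 and 3.04 with vehicle. The male arrays read 6.00, 7.24 and 5.80 with dexamethasone, against 2.42, 2.99 and 1.81 with vehicle. The groups did not overlap in either sex, and male dexamethasone replicate 2 held the highest level of all 12 arrays, as it did for Tat. The difference was 3.90 ± 0.42 log2 units in females (SE, 14.9-fold, limma adjusted p = 0.000767) and 3.94 ± 0.42 in males (15.4-fold, adjusted p = 0.000711). Within slides it was 3.62 in females (adjusted p = 0.0396) and 3.60 in males (0.0336).

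The female response of Tdo2 minus the male response was -0.04 log2 units (95% interval -1.34 to 1.25, adjusted p = 0.989). This interval is wide: it leaves room for responses that differ more than 2-fold in either direction. The sign of this difference changed under 8 of 20 alternatives, as it lies near 0. The calls of Tat and Tdo2 in both sexes were kept under all 21 alternatives run. Over these, Tat differed by 2.82 to 3.33 in females and 2.59 to 3.02 in males, and Tdo2 by 3.59 to 4.07 in females and 3.49 to 4.23 in males.

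RefSeq promoters (build GRCr8, 250 bases before to 50 after the start) were found for 6 of the 9 genes: Tat, Tdo2, Got1, Hpd, Oat and Gls2, the last with 2 starts. Not matched were Sds, Gpt and Hal. Those of Tat (chr19:54856354-54856653, plus strand) and Tdo2 (chr2:169585537-169585836, minus strand) are printed because these genes rose together. Capitals mark a TATA box match.
Tat promoter: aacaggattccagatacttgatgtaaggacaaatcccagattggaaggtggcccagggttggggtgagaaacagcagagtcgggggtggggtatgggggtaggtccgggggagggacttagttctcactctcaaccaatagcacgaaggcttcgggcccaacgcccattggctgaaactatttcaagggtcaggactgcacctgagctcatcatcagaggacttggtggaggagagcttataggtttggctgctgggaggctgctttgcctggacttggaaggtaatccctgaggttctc
Tdo2 promoter: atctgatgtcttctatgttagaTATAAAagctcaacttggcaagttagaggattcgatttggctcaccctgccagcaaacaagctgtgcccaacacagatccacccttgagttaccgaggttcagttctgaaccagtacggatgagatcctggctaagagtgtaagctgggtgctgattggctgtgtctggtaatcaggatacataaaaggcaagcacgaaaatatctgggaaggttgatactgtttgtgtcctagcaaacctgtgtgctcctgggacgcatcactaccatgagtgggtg

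Motifs were searched on both strands. The short site of the glucocorticoid receptor, TGTTCT, present in 20.68% of all 33469 promoters, and the full palindromic glucocorticoid response element, present in 0.4392%, had no match in the 7 windows. The C/EBP motif TTGCNNAA, in 10.6% of all promoters, and the cyclic AMP element TGACGTCA, in 1.829%, had none either. The TATA box TATAAA, in 14.22% of promoters, matched once in Tdo2, at -228 to -223 from the start. The short cyclic AMP element TGACG, contained in TGACGTCA and found in 21.2% of promoters, matched once in Oat and at 2 places in 1 Gls2 promoter. These are letter matches within short windows and say nothing of binding elsewhere.

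Hpd, 4-hydroxyphenylpyruvate dioxygenase, takes the product of Tat to homogentisate. Its level in females was 5.68, 5.71 and 5.50 with dexamethasone, against 5.32, 5.35 and 5.00 with vehicle. The female groups did not overlap, but the difference of 0.40 ± 0.22 (SE) did not pass (limma adjusted p = 0.414). In males it was 5.95, 5.90 and 5.38 with dexamethasone, against 5.84, 6.15 and 5.42 with vehicle, overlapping groups that differed by -0.06 ± 0.22 (adjusted p = 0.89). The step after Tat had a 95% interval of -0.08 to 0.89 in females and -0.54 to 0.42 in males, below the interval of Tat itself (2.70 to 3.63 and 2.36 to 3.29).

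Gpt, alanine aminotransferase, converts alanine to pyruvate, a precursor of glucose. In males its level was -3.94, -2.64 and -3.42 with dexamethasone, against -5.25, -5.45 and -3.86 with vehicle. The groups overlapped, since male vehicle replicate 3 lay above male dexamethasone replicate 1, and the probe was well above background on only 1 of 3 male vehicle arrays, replicate 3. The difference was 1.52 ± 0.41 log2 units (SE, limma adjusted p = 0.0397), a value that includes the signals of the 2 vehicle arrays not well above background. In females it was -3.57, -3.30 and -3.59 with dexamethasone, against -4.03, -3.66 and -3.82 with vehicle, a difference of 0.35 ± 0.41 (adjusted p = 0.791) with no overlap. The female response minus the male response was -1.17 (95% interval -2.44 to 0.10, adjusted p = 0.474), which includes the same signals.

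The call of Gpt in males was lost under 13 of 20 alternatives. The difference was 0.07 log2 units with the normexp background correction (limma adjusted p = 0.803), 0.92 within slide 1 (0.457) and 1.52 with the male arrays fitted alone (0.182). Without male dexamethasone replicate 2 it was 1.17 (adjusted p = 0.134), without replicate 3 it was 1.57 (0.0859), without male vehicle replicate 1 it was 1.32 (0.103) and without replicate 2 it was 1.22 (0.101). Leaving out any 1 of the 6 female arrays gave 1.52, with adjusted p from 0.0513 to 0.0607.

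Got1, the cytosolic aspartate aminotransferase, was not called in any comparison. Its level in females was 2.17, 2.72 and 2.63 with dexamethasone, against 1.86, 2.19 and 2.23 with vehicle. Male levels were 2.59, 3.13 and 2.40 with dexamethasone, against 2.59, 2.39 and 2.40 with vehicle. Dexamethasone and vehicle arrays overlapped in both sexes. The difference was 0.42 ± 0.22 in females (SE, limma adjusted p = 0.399) and 0.25 ± 0.22 in males (adjusted p = 0.514).

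Oat, the mitochondrial ornithine aminotransferase, links ornithine to glutamate and proline. By its brighter probe its level in females was 2.70, 3.04 and 3.41 with dexamethasone, against 2.27, 2.73 and 2.64 with vehicle. In males it was 2.05, 2.82 and 2.92 with dexamethasone, against 1.00, 2.24 and 2.49 with vehicle. The groups overlapped in both sexes, with a difference of 0.50 ± 0.38 in females (SE, limma adjusted p = 0.608) and 0.69 ± 0.38 in males (adjusted p = 0.269). The second probe gave 0.51 ± 0.27 in females and 0.56 ± 0.27 in males (adjusted p = 0.405 and 0.222), so the probes differed by less than their errors. By the brighter probe, each dexamethasone array lay above the vehicle array of its number in both sexes. In females the difference did not pass with the replicate number as a block (limma adjusted p = 0.142). With the replicate number as a block the male difference passed (adjusted p = 0.041), and within slide 1 it was 0.14 (adjusted p = 0.924).

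**Figure D2:**
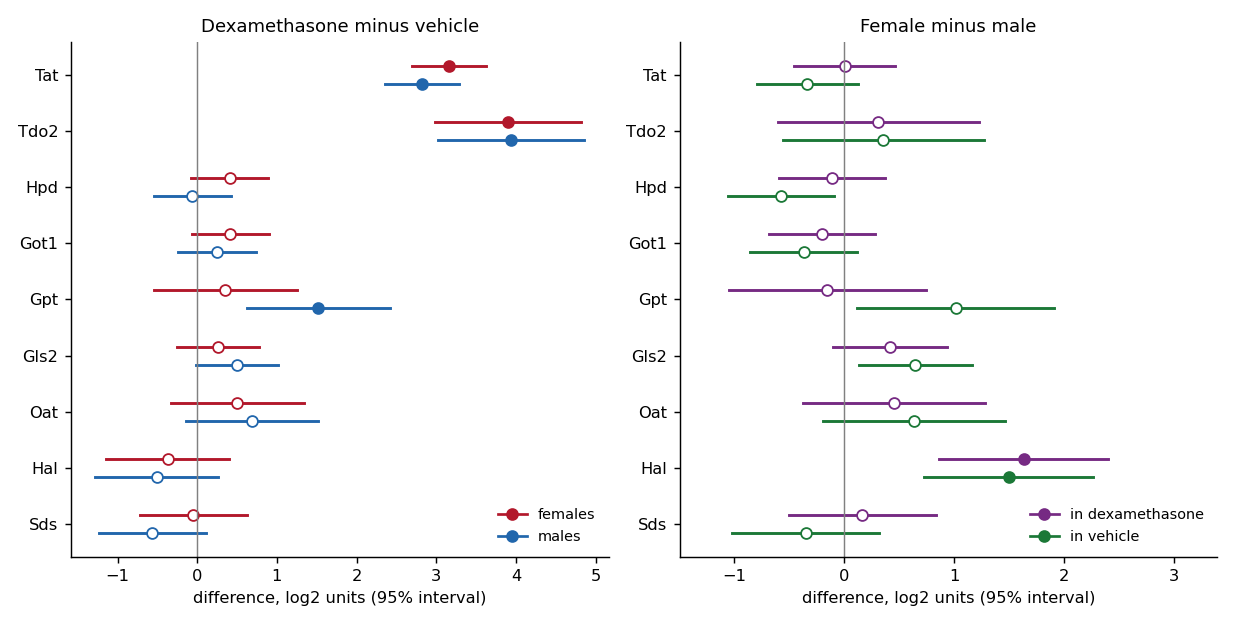
Differences in log2 units (horizontal axis) with 95% intervals for the 9 enzymes, dexamethasone minus vehicle in females (red) and males (blue) on the left, and female minus male in dexamethasone (purple) and in vehicle (green) on the right. Filled points have a limma adjusted p at or under 0.05. Tat and Tdo2 stand between 2.82 and 3.94 on the left, Gpt is filled in males only, and Hal is the filled gene on the right, at 1.64 and 1.50.

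Sds, serine dehydratase, turns serine to pyruvate and is known as an enzyme of fasting and protein feeding. Its level in females was 1.18, 1.32 and 1.18 with dexamethasone, against 1.24, 1.50 and 1.09 with vehicle. Male arrays had 1.45, 0.86 and 0.88 with dexamethasone, against 2.42, 1.36 and 1.11 with vehicle. The groups overlapped, and male vehicle replicate 1 held the highest level of the 12 arrays. The difference was -0.05 ± 0.30 in females (SE, limma adjusted p = 0.976) and -0.57 ± 0.30 in males (adjusted p = 0.261). Without male vehicle replicate 1 the male difference was -0.17.

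Gls2, the liver glutaminase, releases ammonia from glutamine next to the urea cycle. Its level in females was 2.27, 1.95 and 2.32 with dexamethasone, against 2.17, 1.83 and 1.74 with vehicle. In males it was 1.96, 1.65 and 1.66 with dexamethasone, against 1.38, 0.76 and 1.66 with vehicle. The differences of 0.26 ± 0.23 in females (SE, limma adjusted p = 0.695) and 0.49 ± 0.23 in males (adjusted p = 0.203) did not pass.

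Hal, histidine ammonia-lyase, removes ammonia from histidine to give urocanate. It was not called in either response to dexamethasone. By its brighter probe its level in females was 3.50, 4.22 and 4.87 with dexamethasone, against 3.86, 4.85 and 4.99 with vehicle, a difference of -0.37 ± 0.35 (SE, limma adjusted p = 0.715). The male levels were 2.50, 2.47 and 2.71 with dexamethasone, against 2.92, 3.17 and 3.11 with vehicle, groups that did not overlap and differed by -0.51 ± 0.35 (adjusted p = 0.382).

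Hal was the 1 gene of the 9 called between the sexes, higher in females in both treatments, and 0 were called lower. Of all kept probes, 1.23% were called higher and 1.77% lower in females with dexamethasone, and 6.25% higher and 7.73% lower with vehicle. At an unadjusted p under 0.05, 1 of the 9 passed with dexamethasone and 4 with vehicle, beside 18.5% and 30.2% of all kept probes. The female arrays of Hal all lay above the male arrays of the same treatment. The difference was 1.64 ± 0.35 log2 units with dexamethasone (SE, 3.11-fold, limma adjusted p = 0.0331) and 1.50 ± 0.35 with vehicle (2.83-fold, adjusted p = 0.019).

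The dimmer Hal probe had the same direction, but it passed the filter on low signal only through the female groups, where it was higher. Its values are therefore a description and no separate support for the brighter probe. With dexamethasone its level was -3.19, -2.43 and -2.30 in females, against -4.82, -4.41 and -4.18 in males, a difference of 1.83 ± 0.32 (SE, limma adjusted p = 0.0149). Male dexamethasone replicate 1, the lowest of these, was not well above background. With vehicle it was -3.30, -2.46 and -2.09 in females, against -4.88, -4.88 and -5.03 in males, where all 3 arrays were not well above background. Against the lowest measurable signal of those arrays, females with vehicle were at least 2.33-fold higher in the main processing. With normexp background the difference was 0.62 log2 units, so the bound does not hold for other processing. The probe was called on the signals as read (limma adjusted p = 0.00213), and the bound itself was not tested. For this bound each male array was given either the probe's own signal or the dimmest signal measured above background on it, whichever was higher.

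**Figure D3:**
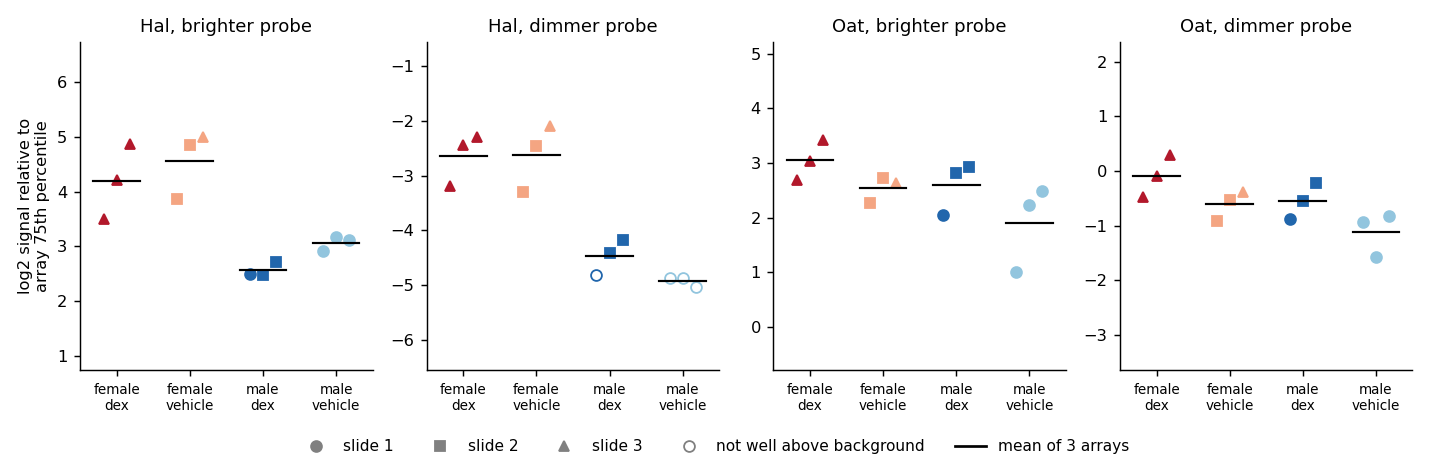
Log2 signal relative to the array's 75th percentile for both probes of Hal and both of Oat on each array (groups on the horizontal axis, 3 arrays each, bars at means, shapes for slides, open points not well above background). Both Hal probes are higher in females than in males, and the dimmer one is open on all 3 male vehicle arrays.

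The sexes could not be compared within a slide in either treatment. With the slide as a block the difference of Hal was 0.97 with dexamethasone (limma adjusted p = 0.725) and 1.19 with vehicle (0.44) for the brighter probe, and 0.87 (0.677) and 1.53 (0.226) for the dimmer one. In vehicle the call of the brighter probe was lost without female vehicle replicate 2 (1.36, adjusted p = 0.0646) or replicate 3 (1.29, 0.0693). With dexamethasone it was lost without male dexamethasone replicate 1, 2 or 3 (1.61, 1.59 and 1.71, adjusted p = 0.0864, 0.0869 and 0.0806) or female dexamethasone replicate 2 or 3 (1.63 and 1.30, adjusted p = 0.123 and 0.115). With dexamethasone the dimmer probe lost its call without male dexamethasone replicate 1 (1.66, adjusted p = 0.0532) or female dexamethasone replicate 2 or 3 (1.73 and 1.66, adjusted p = 0.0771 and 0.0676).

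Markers of stellate cells and fibroblasts also differed between the sexes. With vehicle, 5 of 8 measured markers were called higher in females, among them Col3a1 by 2.40 log2 units, and Lrat and Pdgfrb were above background on 0 of 3 male vehicle arrays. The summed linear level of the 8, relative to the array's 75th percentile, was 8.62 to 14.8 in females with vehicle, against 4.83 to 7.52 in males. With dexamethasone the summed level was 5.39 to 7.24 in females, against 2.83 to 6.41 in males. There 2 of the 8 were called higher in females and 0 lower. These were Lrat, by 2.90 log2 units, and Pdgfrb, by 3.15, the latter above background on 2 of 3 male dexamethasone arrays. Of the other marker lists with vehicle, 1 of 10 Kupffer cell markers, Csf1r, was called higher in females. Called lower were 1 of 8 hepatocyte markers (Fgb), 1 of 6 tested endothelial cell markers (Vwf) and 1 of 5 cholangiocyte markers (Epcam). Vwf and Epcam were above background on all 3 female vehicle arrays, but on 1 (Vwf) and 2 (Epcam) of 3 male ones. Their male levels thus include signals not well above background. The median difference of the hepatocyte markers was -0.64 log2 units, and their summed level was 1028 to 1401 in females with vehicle, against 1618 to 2160 in males. The part of these markers in the difference of Hal was not tested.

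Of the other genes, Hpd differed between the sexes by -0.58 ± 0.22 with vehicle (SE, limma adjusted p = 0.103), Gls2 by 0.65 ± 0.23 (0.0886) and Gpt by 1.02 ± 0.41 (0.121), the last with 2 of 3 male arrays not well above background. The female and male arrays with vehicle did not overlap for Hpd and Gls2, nor for Got1, whose difference was -0.37 ± 0.22 (0.286). With dexamethasone these differences were -0.11, 0.42, -0.15 and -0.20, and each 95% interval held 0. In the test of the female response against the male response, 0 of the 9 genes were called by limma, and 0 had an unadjusted p under 0.05, beside 11.8% of all kept probes. Of all kept probes, 0.0742% were called with a higher and 0.0323% with a lower response in females, and these 33 probes became 0 to 665 when single arrays were left out and 7427 without the filter on dim probes.

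Along the 12 arrays, the patterns of the 9 genes were compared in pairs. The measure was the root mean square difference of log2 levels after each gene was centred on its mean. The closest pair was Got1 and Hpd, at 0.30 log2 units, and the farthest was Tdo2 and Hal, at 2.32. Tat and Tdo2 lay 0.64 apart. Among 8262 named genes well above background on all 12 arrays, the nearest to Tat were Lpin1 (0.26), Slc25a29 (0.30) and Adgrg2 (0.32). The nearest to Tdo2 were Akr1c14 (0.35), Depp1 (0.35) and Igfbp1 (0.45). The arrays are those used for the tests, so these likenesses are a description.

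Other enzymes of the same routes were taken as lists chosen with earlier results of these data known. Of 67 listed, 61 were measured and passed the filter. In females 6 rose and 0 fell, and in males 4 rose and 0 fell, by limma adjusted p over all kept probes. The rises are 9.84% of the 61 in females and 6.56% in males, beside 2.8% and 5.36% of all kept probes, so the male share is near that of all probes. The median difference was 0.21 log2 units in females and 0.18 in males, and 49 and 41 of the 61 were above 0. At an unadjusted p under 0.05, 16 passed in females, 0 of them lower, and 18 in males, 4 of them lower. These are 26.2% of the 61 in females and 29.5% in males, beside 16.7% and 27% of all kept probes. With the replicate number as a block, 13 rose in females and 12 in males, and 0 fell, while 4.08% of all kept probes rose and 2.37% fell in females, and 7.38% rose and 8.43% fell in males. With the slide as a block 0 were called in either sex.

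Of the 4 measured genes of phenylalanine and tyrosine other than Tat and Hpd, 0 passed in either sex. Along the tryptophan route after Tdo2, 1 of 6 measured genes passed in females and 0 in males. Acmsd, which turns tryptophan carbon away from NAD synthesis, rose by 1.55 ± 0.38 in females (SE, 2.93-fold, limma adjusted p = 0.0499), and its male difference was 1.26 (adjusted p = 0.0607). Of the enzymes after Hal, Uroc1, Amdhd1 and Ftcd, 0 passed in either sex.

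Among enzymes of serine, glycine and threonine, Gnmt, which methylates glycine with S-adenosylmethionine, rose by 2.74 ± 0.56 in females (SE, 6.67-fold, limma adjusted p = 0.024) and 2.68 ± 0.56 in males (6.42-fold, adjusted p = 0.015). Shmt1, which moves the serine carbon to folate, rose by 1.06 ± 0.22 in males (adjusted p = 0.0156), and its female difference was -0.21 (adjusted p = 0.768). In the methionine and cysteine list, Mat1a, which makes S-adenosylmethionine, rose by 1.37 ± 0.31 in females (adjusted p = 0.0364), and Ahcy, which splits the product of its use, by 1.03 ± 0.20 (adjusted p = 0.0185). Csad, of taurine synthesis, was called higher in males (adjusted p = 0.0112) but was above background on 0 of 3 male vehicle arrays, and no fold is given. Its call was lost with normexp (0.23, adjusted p = 0.471).

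Gpt2, the mitochondrial alanine aminotransferase, rose by 0.82 ± 0.15 in females (SE, 1.77-fold, limma adjusted p = 0.0154). Glul, which makes glutamine rather than breaking it down, rose by 1.44 ± 0.30 in males (2.72-fold, adjusted p = 0.0141). Of the 15 measured branched-chain enzymes, Mccc1, of leucine breakdown, rose in females by 0.68 ± 0.16 (adjusted p = 0.0406). The lysine list (4 genes) and the proline and ornithine list (1 measured gene) had no call in either sex.

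These list counts rest on few arrays. In females 0 of the 61 were called by limma without female dexamethasone replicate 1, 2 or 3 or female vehicle replicate 1, and 1 without female vehicle replicate 3. Of the 6 female rises, 0 kept their call with each of the 12 arrays left out in turn. Of the male ones, Gnmt and Glul kept theirs, and Shmt1 lost it without male dexamethasone replicate 2 (0.97, limma adjusted p = 0.0601). Csad also kept its male call (highest limma adjusted p = 0.0474), but its probe was not above background on the male vehicle arrays.

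**Figure D4:**
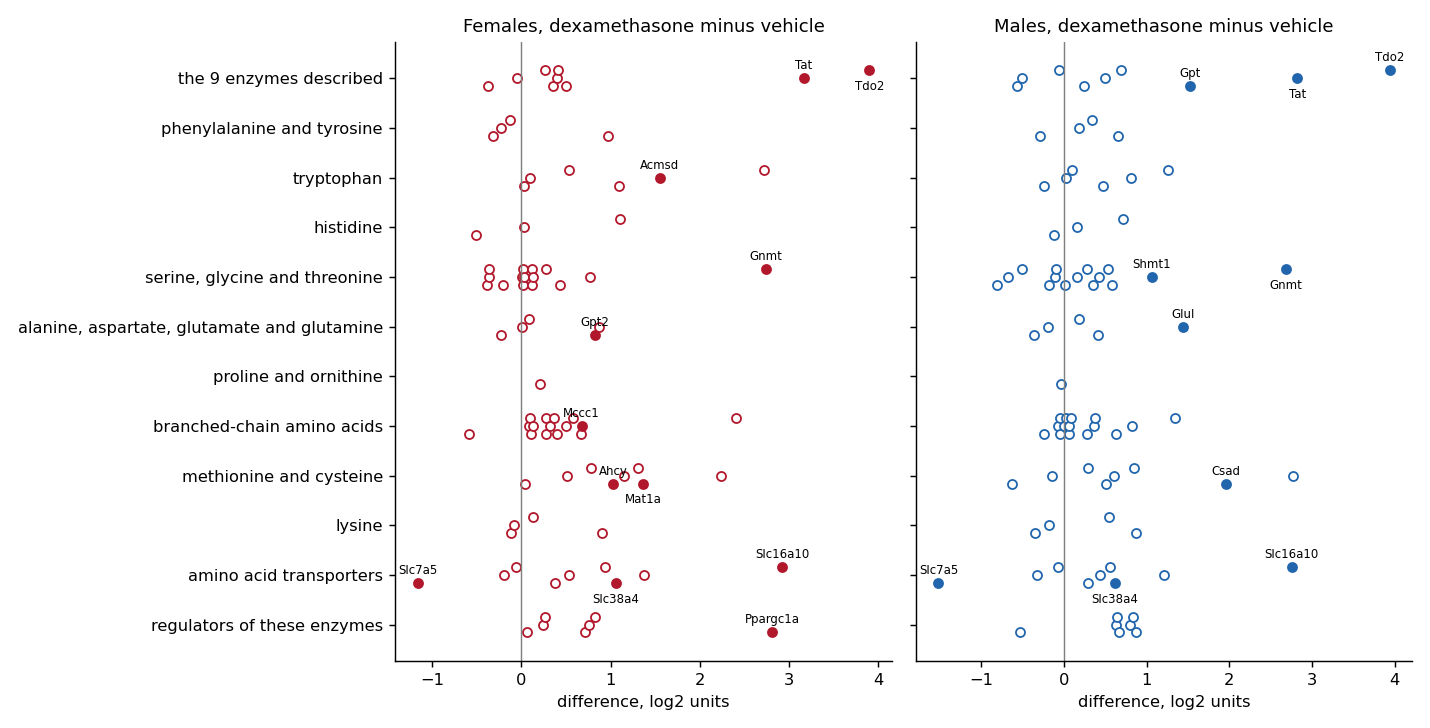
Dexamethasone minus vehicle in log2 units (horizontal axis) for each measured gene of the 9 enzymes, of the lists of other breakdown enzymes, of amino acid transporters and of regulators (rows), in females (left) and males (right). Filled, named points have a limma adjusted p at or under 0.05. Tat and Tdo2 lie at the right end, and Gnmt and Slc16a10 are filled above 2 log2 units in both sexes.

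Of 9 amino acid transporters, 2 rose and 1 fell in each sex, beside 2.8% higher and 1.01% lower of all kept probes in females and 5.36% and 4.85% in males. Slc16a10, which carries aromatic amino acids, the substrates of Tat and Tdo2, across the cell membrane, rose by 2.92 ± 0.41 in females (SE, 7.57-fold, limma adjusted p = 0.00362) and 2.76 ± 0.41 in males (6.75-fold, adjusted p = 0.00313). Slc38a4, a sodium-coupled transporter of neutral amino acids, rose by 1.06 ± 0.15 in females (adjusted p = 0.00413) and 0.62 ± 0.15 in males (adjusted p = 0.0282). Slc7a5, an exchanger of large neutral amino acids, fell by 1.16 ± 0.27 log2 units in females (adjusted p = 0.0415) and by 1.52 ± 0.27 in males (adjusted p = 0.00817). Within slides only the female rises of Slc16a10 (3.04, adjusted p = 0.0373) and Slc38a4 (1.30, 0.0316) passed. Slc7a5 in females lost its call without any 1 of the 6 female arrays except vehicle replicate 2, or without male dexamethasone replicate 1, with adjusted p from 0.0539 to 0.149. Slc38a4 in males lost it without any 1 male dexamethasone array or male vehicle replicate 2, with adjusted p from 0.0543 to 0.077.

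Of 7 regulators of these enzymes, 1 passed in females and 0 in males. The list held Nr3c1, the glucocorticoid receptor, Cebpa, Cebpb, Hnf4a, Foxa2, Foxo1 and Ppargc1a. Ppargc1a, a coactivator of gluconeogenic genes, was above background on 0 of 3 female vehicle arrays. With dexamethasone it was higher at least 2.85-fold in the main processing. Over the alternatives its difference ran from 0.45 to 3.40 log2 units, so the bound does not hold for other processing. Ppargc1a was called on the signals as read (limma adjusted p = 0.0178), and the bound itself was not tested. Its call was lost with normexp (adjusted p = 0.262), with quantile normalization (0.143), within slides (0.148), and without female dexamethasone replicate 1 or 2 or female vehicle replicate 1 or 3 (0.0677 to 0.0809). Nr3c1 itself differed by 0.27 in females (adjusted p = 0.763) and 0.67 in males (0.167). With the replicate number as a block 3 regulators passed in females and 4 in males, all higher.

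The periportal list of 7 genes holds Hal, Sds and Gls2, which did not pass, and 4 others. In females 3 of the 7 were called higher and in males 2, and 0 were lower in either sex. Of all kept probes, 2.8% were called higher in females and 5.36% in males. The 2 rises of largest size in each sex are named. In females Pck1, of gluconeogenesis, rose by 2.93 ± 0.62 (SE, limma adjusted p = 0.0271), and Cps1, the entry to the urea cycle, by 2.50 ± 0.56 (adjusted p = 0.0358). In males Pck1 rose by 3.63 ± 0.62 (adjusted p = 0.00642) and Cps1 by 2.43 ± 0.56 (adjusted p = 0.0227). Within slides neither passed (adjusted p from 0.128 to 0.338). The female call of Pck1 was lost without any 1 of the female arrays except vehicle replicate 2, with adjusted p from 0.0543 to 0.114. That of Cps1 was lost without female dexamethasone replicate 2 or 3, female vehicle replicate 1 or 3 or male dexamethasone replicate 3, with adjusted p from 0.0541 to 0.138. In males Cps1 lost its call without male dexamethasone replicate 2 or 3 or male vehicle replicate 1, with adjusted p from 0.0544 to 0.0753. Of the 8 pericentral genes, among them Oat, 0 passed in females and 1, Glul, in males.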

How the data were processed

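RNA of the 12 hepatocyte samples was measured on 1-colour Agilent arrays, each deposited as the spot intensity values of the scanner software, Agilent Feature Extraction, version 9.5.3.1 per the file headers (9.5 per the submitters' processing notes). The processed signal is a linear intensity with the background subtracted within each array, per the file headers, and the authors' deposited value table holds the same intensity values (540216 of 540216 equal). Control spots and outlier flags were left out, and spots of a probe were averaged as log2 values. Levels are log2 processed signal minus the array's 75th percentile. A probe was kept where 1 group or more had it well above background on each of its 3 arrays (30979 of 41012). Gene names came from the files, updated through a RefSeq table by accession or symbol (19861 probes) or kept as given (20970), and 181 table names were refused because the chromosome differed. A gene is represented by its kept probe of highest mean signal.

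Groups follow the sample titles. One limma 3.58.1 model (R 4.3.3) with 4 group means was fitted to all kept probes on the 12 arrays, with lmFit, contrasts.fit and eBayes, two-sided, and Benjamini-Hochberg adjustment at 0.05. The 5 comparisons were dexamethasone minus vehicle in each sex, the difference of these, and female minus male in each treatment. The main model with 4 group means took no arrays as paired. Only the replicate-block alternative paired same-numbered arrays within a sex, by the titles' replicate numbers. Their deviations from the group means correlated at 0.36 to 0.54 in females and 0.40 to 0.59 in males over all 3 pairs. Between the sexes the correlation was 0.23 to 0.30 with dexamethasone and 0.04 to 0.18 with vehicle. The main model did not pair the sexes by number. The replicate-block alternative of the female minus male comparisons did share each number across both sexes. Alternatives were normexp background, quantile and median scaling, other filters, the slide or the replicate number as a block, fewer groups or probes in the fit, and each array left out. The steps were tested on simulated data.

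The members, lists and tests were chosen with earlier results of these data known. Every member is named. Some genes of the wider lists are not reported here and are in no list count. From each other list, up to 2 rises and 2 falls of largest size among those called were named in each dexamethasone comparison, and the 3 nearest patterns for members called in both sexes. Uroc1, Amdhd1, Ftcd, Nr3c1, Col3a1, Csf1r, Fgb, Vwf, Epcam, Lrat and Pdgfrb were named in addition, after their values were seen. The precision is limited by how many arrays there are, since arrays have no read depth.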

Additional observations from a re-analysis of the deposited data

Results flagged for a closer look

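Shmt1, the cytosolic serine hydroxymethyltransferase, had its arrays in opposite order in the sexes: all 3 female dexamethasone arrays lay below all 3 female vehicle arrays, while all 3 male dexamethasone arrays lay above all 3 male vehicle arrays. Its level was 2.14, 2.16 and 2.08 in females with dexamethasone, against 2.44, 2.27 and 2.28 with vehicle. In males it was 2.49, 2.86 and 2.66 with dexamethasone, against 1.03, 1.94 and 1.85 with vehicle. The female response minus the male response was -1.27 log2 units (95% interval -1.96 to -0.57), which did not pass in limma (adjusted p = 0.116, unadjusted p = 0.00209). The male vehicle arrays, which held the lowest levels, were all on slide 1.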

How the results depend on the processing

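The number of the 9 genes called in the female response was 2 under all 21 alternatives, with 2 to 2 when single arrays were left out, and in the male response it was 2 to 4 (2 to 3 with single arrays left out). With the replicate block it was 4 in males, where Oat joined (adjusted p = 0.041), and 2 in females, and the block changed no other call of the 9 in the dexamethasone comparisons. It moved the probes called to 4898 in males and 1999 in females, against 3161 and 1182 without it. For the difference between responses the count was 0 under all 20 alternatives. For females against males with vehicle it was 1, with 2 under normexp background, 2 with the replicate block, 0 with the slide as a block, 0 with only the groups compared, and 0 to 4 with single arrays left out. With dexamethasone it was 1, with 0 under quantile normalization, 0 without a filter on dim probes, 0 with the slide as a block, 0 with only the groups compared, and 0 to 1 with single arrays left out. The extra call with vehicle was of Hpd with the replicate block, here shared across the sexes, and of Gls2 with normexp. The genes behind the count of 4 without male vehicle replicate 3 are not named. The dimmer Hal probe differed by 0.62 under normexp with vehicle (adjusted p = 0.0618) and 0.90 with dexamethasone (0.0722). Signs changed only for differences that passed no threshold. Hpd in males was 0.17 under normexp, 0.090 under quantile normalization and 0.15 with the slide block, and -0.25 to 0.12 with single arrays left out. Sds in females was 0.14 with the slide block and -0.14 to 0.062 with single arrays left out. The difference between responses of Tdo2 was 0.28 under normexp, 0.0080 with the array median, 0.023 with the slide block and -0.35 to 0.40 with single arrays left out. That of Gpt was 0.12 under normexp. Gpt could not be tested among probes above background on all 12 arrays. The other enzymes called in males were 10 under normexp (9 higher, 1 lower) and 0 with only the groups compared, and in females 15 with only the groups compared, 3 under quantile normalization and 3 without a filter. The probes called ran from 333 to 12610 in males and 309 to 2974 in females over the alternatives, and for females against males from 36 to 1743 with dexamethasone and 176 to 14243 with vehicle. The causes were not tested. Dim probes limit Gpt and the dimmer Hal probe on the male vehicle arrays.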
